A study of Mus musculus with 6 samples.

Results

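Heat shock proteins and their co-chaperones were examined in corneal keratocytes, the quiescent mesenchymal cells that build the collagenous stroma of the cornea. Members were taken by gene symbol from the deposited RNA-seq table. Taken were the symbols that begin with Hsp90, and the HSP70, HSP110, small heat shock protein and mitochondrial chaperonin genes named Hspa, Hspb, Hspd, Hspe or Hsph with a number. The DnaJ genes of classes A, B and C, the BAG genes and the symbols Hsf with a number were added. The last are the heat shock factors and Hsf2bp, and HSP90 genes under other names are outside the rule. The rule found 81 of 17606 genes, and 76 of them had at least 10 counts in at least 3 libraries, the minimum for a fold change here. Keratocytes were sorted by flow cytometry from mice of 10 weeks of age given 3 doses of tamoxifen (TAM), 1 month after treatment. The 3 Ptch1-ablated samples came from Prrx1-CreERT;Ptch1 f/f mice, in which tamoxifen activates a Cre recombinase driven by Prrx1, a gene of ocular mesenchyme. The 3 control samples came from age-matched mice that the labels call ctrl, with sample titles marked WT, and that received tamoxifen too; whether they carried Cre or the floxed allele is not given in the sources used here. As the study describes it, the driver also recombines in corneal endothelial cells and in other mesenchyme of the eye. The comparison asks which chaperone transcripts differ in keratocytes when the Hedgehog receptor Ptch1 is removed and the Hedgehog pathway is left active.

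Chaperones bind unfolded stretches of other proteins and keep them from aggregating. Small heat shock proteins hold such clients, HSP70 enzymes fold them in cycles driven by ATP, DnaJ proteins (J proteins) deliver clients to HSP70 and start the ATP step, BAG proteins and HSP110 release the nucleotide, and HSP90 finishes kinases, hormone receptors and other signalling clients. Heat, oxidants and unfolded proteins release the transcription factor Hsf1, which binds heat shock elements and induces a subset of these genes, whereas stress of the endoplasmic reticulum (ER) acts on the ER resident members through other factors. In the cornea crystallins and other soluble proteins are abundant in keratocytes and contribute to transparency, and the same cells must fold and secrete collagen through the ER.

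The libraries held 20258439 to 24788063 counts in the controls and 21729860 to 23530508 in the Ptch1-ablated group. Counts of Ptch1 were 172, 104 and 369 against 4348, 5194 and 6230, and counts of Gli1, the transcriptional effector of the pathway, were 1, 20 and 36 against 3022, 3042 and 3098. Ptch1 is itself induced by the pathway, and a count over the whole gene does not resolve the floxed exons, so it does not test the deletion. The study's methods call the 3 samples of a group biological replicates, and the number of mice behind each is not given in the sources used here.

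Of the members, 5 passed the test after Ptch1 ablation, all in the higher direction. Hspb8 rose 8.65-fold, Hspb1 2.37-fold, Dnajb4 1.995-fold, Dnaja1 1.63-fold and Hsp90aa1 1.37-fold. These 5 of 76 tested members (6.58%) stood beside 4.68% of all 13888 genes tested, at an adjusted p of at most 0.05 from edgeR's quasi-likelihood test. None of the 76 fell, beside 3.8% of all genes, while 2 members (Hsp90b1 and Dnajc28) lay lower at an unadjusted p under 0.05, beside 9.72% of all genes. DESeq2 called 1 member lower, the ER paralog Hsp90b1. With the 2-fold minimum of the study's methods added, 2 members (Hspb8 and Hspb1) were called higher, beside 3.36% of all genes, and 0 lower, beside 2.13%. The log2 fold change of Dnajb4 lay just under 1. Over all 76 members the median log2 fold change was -0.02, with 37 above 0 and 39 below, against 0.0046 over all genes tested. Libraries did not overlap between the groups for 15 members (19.7%) that were higher and 4 (5.26%) that were lower after ablation, beside 14.1% and 13.3% of all genes, the 4 being Hsp90b1, Bag1, Bag6 and Dnajc28. The count of 5 risen members was 3 without control replicate 1 and 2 without control replicate 2, Ptch1-ablated replicate 2 or Ptch1-ablated replicate 3. Only Hspb1 and Hspb8 passed under every one of the 16 alternatives.

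**Figure D1:**
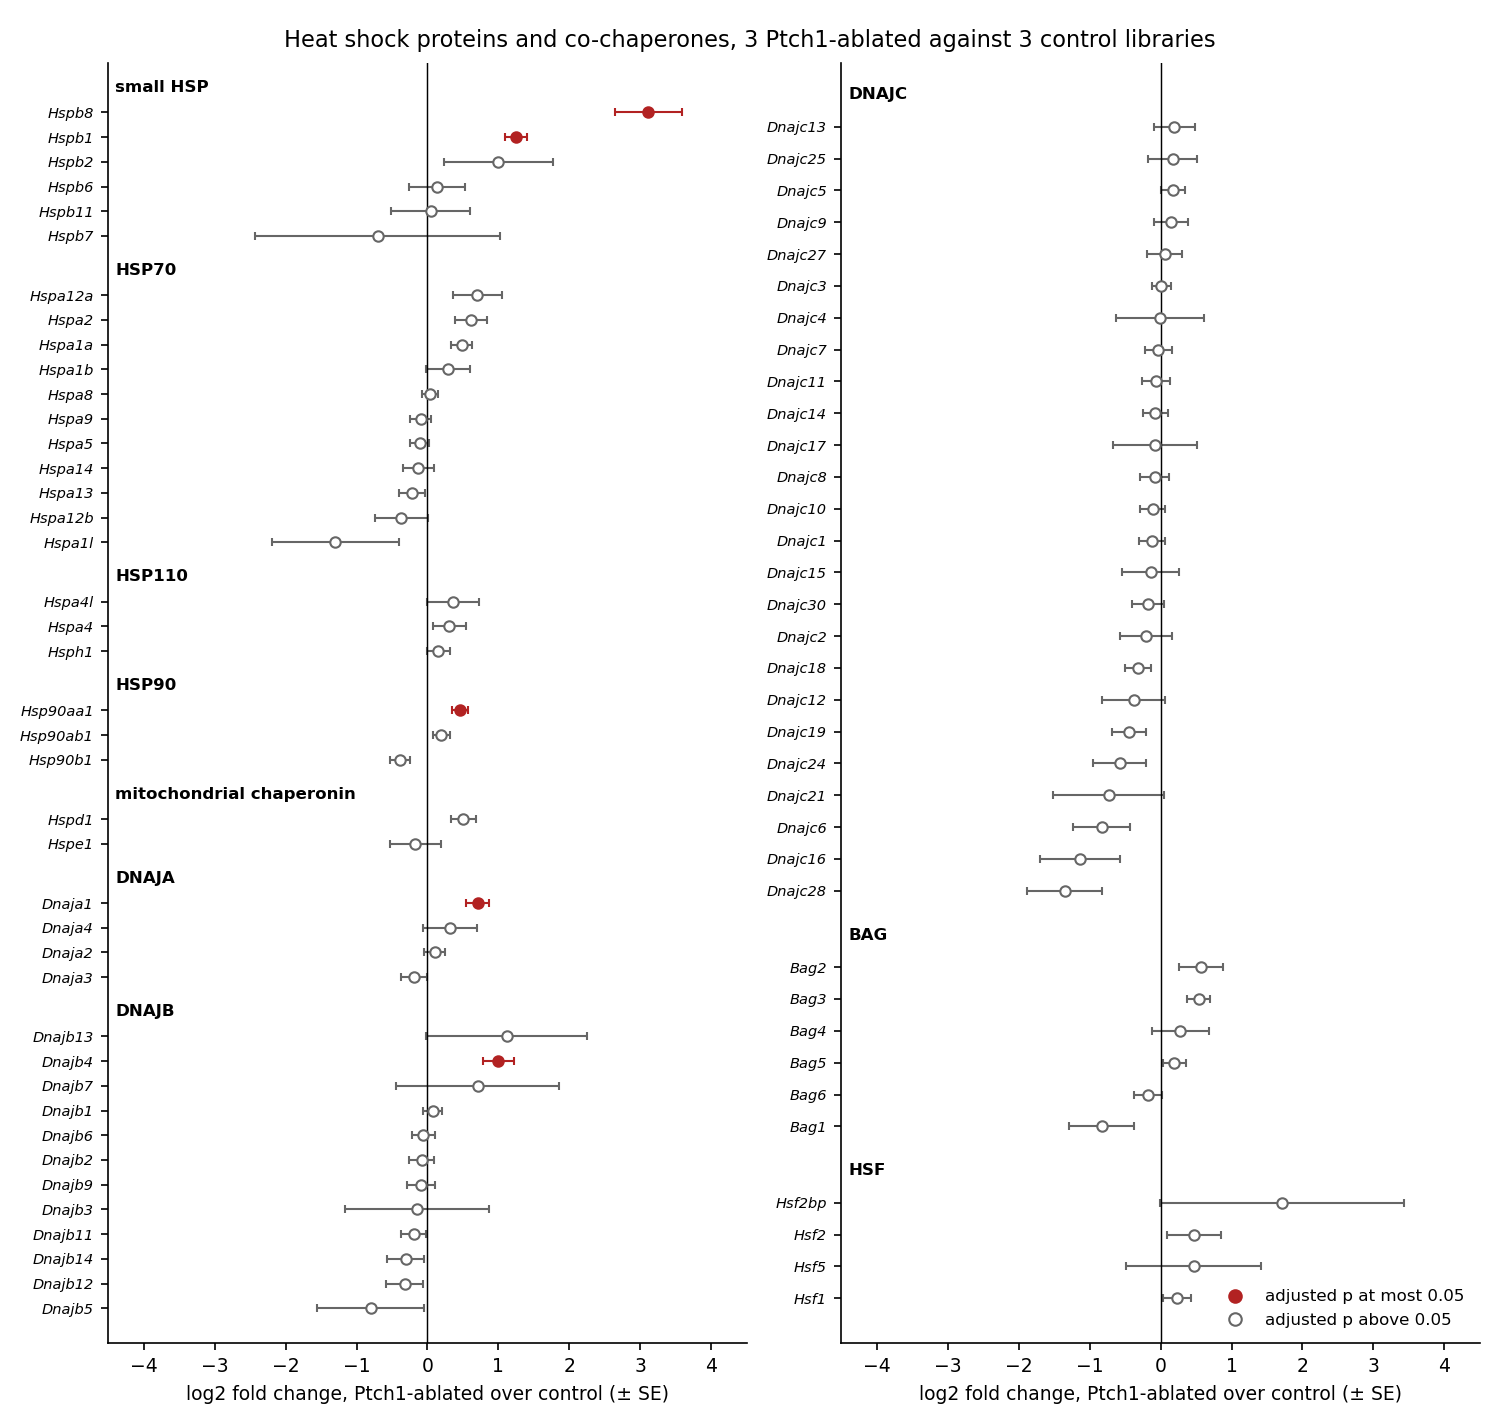
Log2 fold changes (x axis, Ptch1-ablated over control, with SE, n = 3 libraries each) of the 76 tested members, grouped by family and sorted within it. Filled red points passed an adjusted p of 0.05: Hspb8 (3.11), Hspb1 (1.24), Dnajb4 (1.00), Dnaja1 (0.71) and Hsp90aa1 (0.46), and all other members are drawn as open grey points.

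Among the members that passed, the largest differences were those of small heat shock proteins. Values are given below for control replicates 1 to 3 and then for Ptch1-ablated replicates 1 to 3, as counts per 1000000 (CPM) after TMM scaling unless counts or TPM are named. Hspb1 (Entrez 15507), which encodes HSP27, a chaperone that also binds actin filaments, stood at 57.2, 58.7 and 52.0 CPM against 133, 130 and 134 CPM. The libraries of each group lay close together and the groups were far apart, with a log2 fold change of 1.24 ± 0.15 (SE, adjusted p = 0.000238 by edgeR). Hspb8 (Entrez 80888), which works with Bag3 in sending damaged filamin and other clients to autophagy, had 53, 18 and 39 counts against 340, 446 and 269. It was a scarce transcript in every control, at 0.947 to 2.43 CPM, and reached 10.8 to 18.9 CPM after ablation (log2 fold change 3.11 ± 0.48, SE, adjusted p = 0.00132 by edgeR). Per length Hspb8 nevertheless stayed far below Hspb1, at 21.8 ± 7.11 against 457 ± 16.8 TPM in the Ptch1-ablated group (SD, n = 3).

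The other small heat shock proteins did not pass the test. Hspb6, which is best known from muscle, was measured at 10.1 ± 4.09 and 11.1 ± 3.10 CPM in control and Ptch1-ablated samples. Hspb2, which pairs with Hspb3 in muscle, had 41, 61.5 and 15 counts against 97.9, 88 and 88.7 counts, with an adjusted p of 0.528 from edgeR. In the RefSeq gene table Hspb2 overlaps Cryab, so its reads and those of Cryab may be mixed. Hspb11, an intraflagellar transport subunit, differed by 0.04 ± 0.55 (log2, SE). Hspb7 and Hspb9 were at 0 in at least 1 library of each group.

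Cryab, the αB-crystallin gene, is a small heat shock protein outside the symbol rule, and it went the other way. It fell from 157, 151 and 116 CPM to 53.8, 61.0 and 64.1 CPM, a log2 fold change of -1.25 ± 0.17 (SE, adjusted p = 0.00066 by edgeR), and passed under every one of the 16 alternatives. The TPM of Hspb1 was 0.396, 0.419 and 0.487 times that of Cryab in the controls and 2.70, 2.31 and 2.27 times after ablation. Cryab was thus the more abundant transcript of the pair in each control and Hspb1 in each Ptch1-ablated library. Its sister Cryaa was at 3 or fewer counts in every library.

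**Figure D2:**
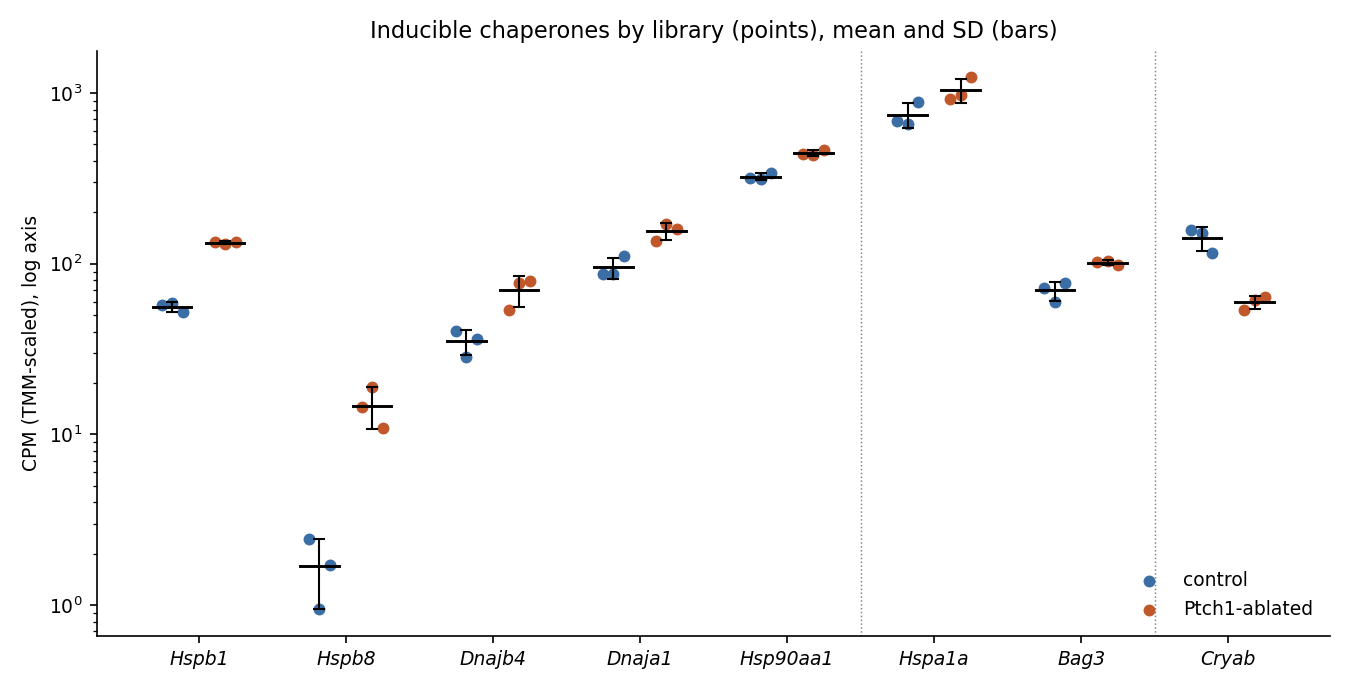
CPM (TMM-scaled, log axis) in each library (points) with the group mean (line) and SD (error bars, n = 3) for the 5 members that rose, for Hspa1a and Bag3, which did not pass, and for Cryab, outside the symbol rule. For Hspb1 the controls sit between 52.0 and 58.7 CPM and the Ptch1-ablated libraries between 130 and 134 CPM, whereas for Cryab the controls are the higher group.

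Among J proteins 1 of 4 class A, 1 of 12 class B and 0 of 25 tested class C members rose. Over all genes 4.68% rose and 3.8% fell, and families this small cannot be told from those shares by their counts, here or below. Dnaja1 (Entrez 15502), a class A partner of cytosolic HSP70, was at 87.1, 87.5 and 110 CPM in the controls and at 135, 171 and 160 CPM after ablation. Every Ptch1-ablated library exceeded every control (log2 fold change 0.71 ± 0.17, SE, adjusted p = 0.0188 by edgeR). The call was lost without control replicate 1, control replicate 2, Ptch1-ablated replicate 2 or Ptch1-ablated replicate 3, at edgeR adjusted p-values of 0.0570, 0.0954, 0.0716 and 0.0692. Dnajb4 (Entrez 67035), a class B relative of the main heat-inducible J protein, was at 40.5, 28.6 and 36.2 CPM against 53.8, 76.8 and 79.5 CPM. The groups did not overlap, and Ptch1-ablated replicate 1 lay nearest the controls (log2 fold change 1.00 ± 0.22, SE, adjusted p = 0.0141 by edgeR). Its call was lost without control replicate 2, Ptch1-ablated replicate 2 or Ptch1-ablated replicate 3, at edgeR adjusted p-values of 0.0685, 0.0568 and 0.0748.

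Dnajb1, the major J protein induced by heat, did not pass. It was measured at 345, 292 and 345 CPM and then 329, 329 and 377 CPM, and in CPM the groups overlapped (log2 difference 0.07 ± 0.13, SE, adjusted p = 0.83 by edgeR). On the TPM scale they did not overlap, at 207 to 254 against 269 to 300 TPM. Neither limma fit on TPM called Dnajb1 (adjusted p = 0.199 and 0.202 by limma). Dnaja2, the housekeeping relative of Dnaja1, was at 102 ± 2.72 and 109 ± 5.12 CPM (SD, n = 3 each). The TPM of Dnaja1 was 0.755, 0.727 and 0.911 times that of Dnaja2 in the controls and 1.09, 1.38 and 1.19 times after ablation. Dnajb6, which keeps polyglutamine proteins soluble, was at 84.8 ± 4.25 and 81.3 ± 7.84 CPM, and Dnajc8, a splicing-associated J protein, at 49.3 ± 1.81 and 46.6 ± 9.57 CPM.

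The large class C holds J proteins with varied duties, and 0 of its 25 tested genes passed, with 6 log2 fold changes above 0 and 19 below (median -0.11). The lowest value belonged to Dnajc28, at 11.3, 5.73 and 11.5 CPM against 3.92, 1.70 and 5.56 CPM, with an edgeR adjusted p of 0.164 although each Ptch1-ablated library lay below each control. Dnajc16, at 78, 409 and 253 counts against 85, 140 and 170, had one control below every Ptch1-ablated library (adjusted p = 0.29 by edgeR), and without that library, control replicate 1, it passed at an edgeR adjusted p of 0.0442. Both were singled out after their values were seen.

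Of the HSP90 family, Hsp90aa1 (Entrez 15519), the inducible cytosolic form, rose. It was at 319, 313 and 340 CPM in the controls and at 436, 436 and 465 CPM after ablation, so that the lowest Ptch1-ablated library lay well above the highest control. The log2 fold change was 0.46 ± 0.12 (SE, adjusted p = 0.0327 by edgeR). This call lay near the threshold: it was lost on leaving out any 1 of the 6 libraries (edgeR adjusted p between 0.0547 and 0.149), with upper quartile scaling (0.0521) and with the replicate number as a block (0.0637). Hsp90ab1, the constitutive cytosolic form, was at 909, 780 and 833 CPM against 913, 930 and 1046 CPM and did not pass (log2 difference 0.20 ± 0.12, SE, adjusted p = 0.387 by edgeR). Its groups did not overlap, and it passed in both limma fits on TPM (adjusted p = 0.0407 and 0.0447 by limma). Hsp90b1, the ER form also called GRP94, was at 560, 657 and 768 CPM against 503, 477 and 537 CPM. In CPM each of its Ptch1-ablated libraries lay below each control, with a log2 difference of -0.39 ± 0.14 (SE, adjusted p = 0.118 by edgeR), which DESeq2 put at 0.0419. Library totals gave -0.216 (adjusted p = 0.347 by edgeR), and both limma fits on TPM gave -0.165 (adjusted p = 0.499 and 0.503 by limma). On the TPM scale the groups overlapped, with control replicate 1 at 436 TPM and the Ptch1-ablated libraries at 453 to 471 TPM.

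The paralogs therefore stood in another proportion within each library. Hsp90aa1 reached 0.551, 0.459 and 0.428 times the TPM of Hsp90b1 in the controls and 0.838, 0.881 and 0.835 times after ablation. Against Hsp90ab1 the ratio was 0.336 ± 0.0272 in the controls and 0.403 ± 0.0151 after ablation (SD, n = 3 each). The ratios between paralogs were chosen after the values were seen and are given as a description, without a test.

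**Figure D3:**
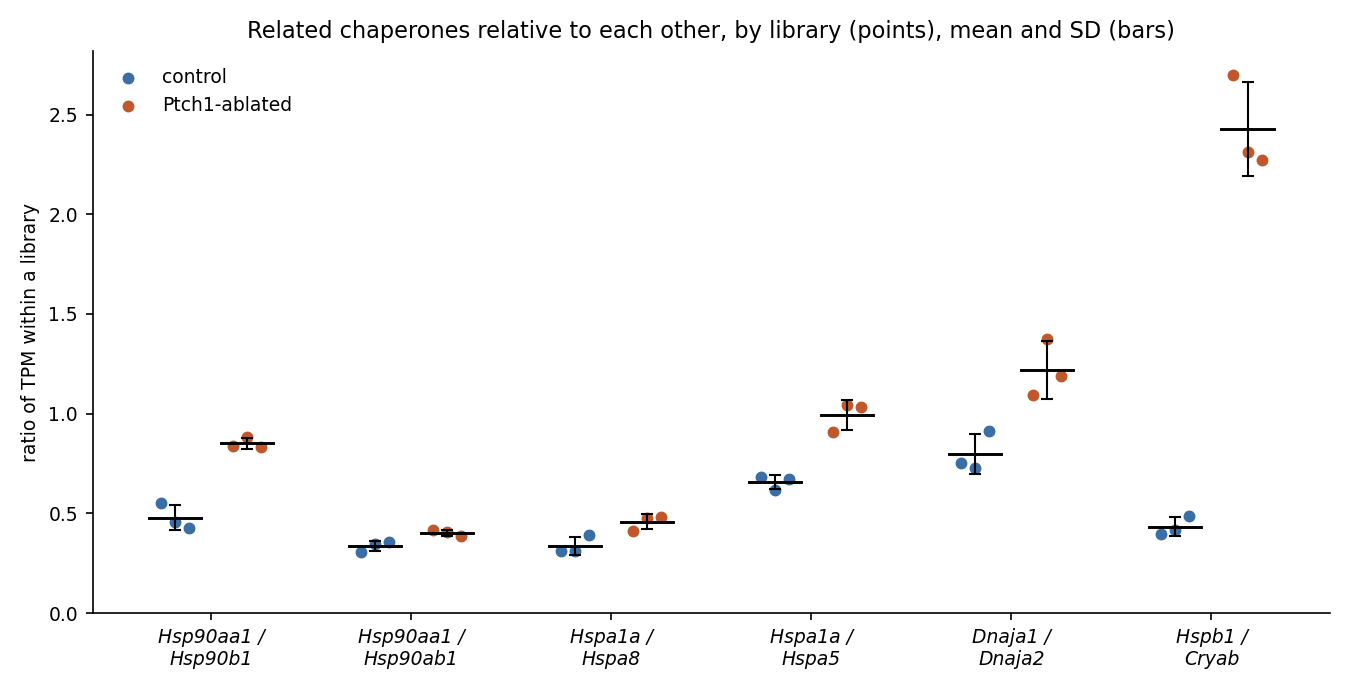
Ratio of the TPM of 2 related chaperones within each library (y axis, points), with the group mean (line) and SD (error bars, n = 3). Each of the 6 ratios drawn, chosen after the values were seen, is higher in every Ptch1-ablated library than in every control, for example Hspb1 over Cryab (0.434 ± 0.0476 against 2.43 ± 0.236).

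In the HSP70 family 0 of 11 members passed. Hspa1a, the strongly heat-inducible cytosolic HSP70, came closest among the abundant ones, at 689, 660 and 887 CPM against 918, 970 and 1236 CPM. The groups did not overlap, with control replicate 3 the nearest to the Ptch1-ablated libraries, and the log2 difference was 0.48 ± 0.15 (SE, adjusted p = 0.0780 by edgeR). Without control replicate 3 it passed at an edgeR adjusted p of 0.0327, and it also passed with the replicate block, with library totals, with DESeq2 and with both limma fits on TPM (adjusted p 0.0105 to 0.0339). Hspa1a and its near-identical neighbour Hspa1b share reads, which RSEM divides between them. Summed over both genes the counts were 15301, 12769 and 20524 against 21821, 23128 and 31161. Hspa1b taken alone was at 11.9 ± 0.758 and 14.5 ± 3.61 CPM.

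Constitutive HSP70 genes showed no difference past the threshold. Hspa8, the housekeeping HSC70 and the most abundant member, was at 1623, 1550 and 1658 CPM against 1618, 1480 and 1872 CPM. In CPM the range of the controls lay within that of the Ptch1-ablated libraries, and the log2 difference was 0.04 ± 0.11 (SE, adjusted p = 0.899 by edgeR). On the TPM scale the groups did not overlap, at 1633 to 1812 against 1934 to 2215 TPM. Neither limma fit on TPM called Hspa8 (adjusted p = 0.198 and 0.196 by limma). The TPM of Hspa1a was 0.310, 0.311 and 0.390 times that of Hspa8 in the controls and 0.414, 0.478 and 0.482 times after ablation. Hspa2, a relative known from male germ cells, was at 26.8, 40.9 and 27.6 CPM against 46.1, 44.7 and 55.0 CPM (adjusted p = 0.139 by edgeR). Its groups did not overlap. Hspa2 passed with library totals (adjusted p = 0.0495 by edgeR) and with both limma fits on TPM (adjusted p = 0.0268 and 0.0319 by limma). The HSP110 exchange factors Hsph1, Hspa4 and Hspa4l had log2 differences of 0.15 ± 0.16, 0.31 ± 0.23 and 0.36 ± 0.36 (SE), with edgeR adjusted p-values of 0.671, 0.509 and 0.652.

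BAG proteins release nucleotide from HSP70 and couple it to different fates, and 0 of the 6 passed. Bag3, the partner of Hspb8 and itself induced by heat, was at 71.8, 60.0 and 77.4 CPM against 103, 103 and 97.7 CPM. All Ptch1-ablated libraries lay above all controls, with a log2 difference of 0.54 ± 0.16 (SE, adjusted p = 0.0684 by edgeR). With library totals, DESeq2 and both limma fits the adjusted p of Bag3 was 0.0123 to 0.0174. Bag1, which couples HSP70 to the proteasome, was at 11.6, 6.15 and 6.61 CPM against 4.09, 3.99 and 5.60 CPM (log2 difference -0.83 ± 0.46, SE, adjusted p = 0.348 by edgeR). The TPM of Bag3 was 4.35 ± 1.33 times that of Bag1 in the controls and 10.8 ± 2.2 times after ablation (SD, n = 3 each). Bag2, a regulator of the ubiquitin ligase CHIP, ranged from 18.8 to 39.0 CPM and from 32.3 to 58.5 CPM, so the groups overlapped. Bag4, Bag5 and Bag6 had log2 differences of 0.28, 0.19 and -0.17, at edgeR adjusted p-values of 0.781, 0.579 and 0.692.

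No heat shock factor passed the test. Hsf1, the main factor of the heat response, which is controlled chiefly at the level of the protein, was at 52.2, 76.5 and 67.6 CPM against 66.0, 83.0 and 81.8 CPM. The groups overlapped (log2 difference 0.23 ± 0.19, SE, adjusted p = 0.565 by edgeR). Hsf2, a factor active in development, was at 9.29 ± 2.42 and 12.9 ± 4.88 CPM (adjusted p = 0.556 by edgeR). Hsf4, the lens factor, had 0 counts in each control and 14, 0 and 4 counts after ablation, under the minimum for a fold change, as were Hsf3, Hspb9, Dnajc5b and Dnajc5g.

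No member listed as a resident of the ER lumen passed the test. The list holds Hspa5 (BiP, the ER HSP70), Hspa13, Hsp90b1 and the J proteins Dnajb9, Dnajb11, Dnajc1, Dnajc3 and Dnajc10, 8 genes with a median log2 fold change of -0.12. Hspa5 was at 914, 970 and 1199 CPM against 919, 847 and 1089 CPM, with overlapping groups and an edgeR adjusted p of 0.733. Dnajc3, which restrains the ER stress kinase PERK and assists BiP, was at 215 ± 12.3 and 217 ± 6.30 CPM. Dnajb9 and Dnajb11, both J proteins that serve BiP, were at 172 ± 26.1 and 162 ± 43.1 CPM and at 76.9 ± 7.14 and 67.3 ± 9.43 CPM. Dnajc10, a reductase of disulphide bonds, was at 140 ± 29.2 and 130 ± 12.6 CPM, and Dnajc1 and Hspa13 were at 71.8 ± 10.3 and 66.1 ± 7.16 CPM and at 79.0 ± 10.0 and 68.1 ± 9.34 CPM. Expressed as a share of the TPM of all members, the 8 genes of the ER lumen took 23.3%, 25.5% and 27.8% in the controls and 20.9%, 20.5% and 21.4% after ablation. Each Ptch1-ablated library thus gave these 8 genes a smaller part of its chaperone transcripts than each control did, a description that includes the rise of the cytosolic members in its denominator. The summed TPM of the 8 genes itself overlapped between the groups, at 1696, 1824 and 2281 against 1864, 1922 and 2116. Their summed CPM overlapped too (2193 to 2804 against 2024 to 2392 CPM).

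The 8 mitochondrial members did not pass either (median log2 fold change -0.16). Hspd1, the HSP60 chaperonin, was at 57.5, 73.2 and 78.1 CPM against 89.1, 106 and 101 CPM, with every Ptch1-ablated library above every control (log2 difference 0.51 ± 0.18, SE, adjusted p = 0.113 by edgeR). It passed with library totals, DESeq2 and both limma fits at adjusted p-values of 0.0208 to 0.0461. Its cochaperonin partner Hspe1, HSP10, is transcribed from the same promoter in the opposite direction and was at 15.8, 14.5 and 8.80 CPM against 8.14, 12.2 and 14.4 CPM. The TPM of Hspd1 was 0.909, 1.28 and 2.25 times that of Hspe1 in the controls and 2.80, 2.17 and 1.78 times after ablation, ratios that overlapped between the groups. The groups overlapped for Hspe1 too (log2 difference -0.17 ± 0.36, SE, adjusted p = 0.86 by edgeR). Hspa9, mortalin, was at 198 ± 19.1 and 185 ± 16.8 CPM. Dnaja3, its J protein, was at 69.8 ± 4.68 and 61.4 ± 11.2 CPM. The remaining mitochondrial members, Dnajc11, Dnajc15, Dnajc19 and Dnajc30, had log2 differences of -0.06, -0.14, -0.45 and -0.18, at edgeR adjusted p-values of 0.913, 0.902, 0.325 and 0.748.

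By abundance per length (mean TPM over all 6 libraries), Hspa8, Hspa5 and Hsp90ab1 ranked highest among the members, with the heat-inducible Hspa1a next. Hspa8 led with 1717 ± 89.6 TPM in the controls and 2039 ± 153 TPM after ablation (SD, n = 3 each). Hspa5 followed in the controls with 884 ± 150 TPM, and Hsp90ab1 at 737 ± 55.7 TPM and Hspa1a at 581 ± 110 TPM came next. The range of Hsp90ab1 overlapped those of Hspa5 and Hspa1a in the controls, and Hspa8 lay above all of them. In the Ptch1-ablated group Hsp90ab1 (977 ± 55.1 TPM), Hspa5 (940 ± 81.3 TPM) and Hspa1a (935 ± 126 TPM) lay within each other's spread. The TPM of Hspa1a was 0.656 ± 0.0359 times that of Hspa5 in the controls and 0.994 ± 0.0754 times after ablation. Hspb1 and Hsp90aa1 stood at 167 ± 6.98 and 247 ± 16.3 TPM in the controls, below Hsp90b1 at 523 ± 93.3 TPM, and reached 457 ± 16.8 and 393 ± 13.3 TPM beside Hsp90b1 at 462 ± 8.74 TPM. The 15 most abundant members by mean TPM over all 6 libraries held 78.2% ± 1.05 of all members' TPM in the controls and 78.1% ± 1.45 after ablation. Dnajb1, Dnajb9, Hspa9, Dnajb6, Dnajc19, Dnajc3, Dnajc8 and Dnajb11 completed them, from 286 down to 85.6 TPM after ablation. In the Ptch1-ablated group alone Dnaja1 (114 TPM), Hspd1 (108 TPM), Bag3 (99.2 TPM) and Dnaja2 (93.3 TPM) stood above Dnajc8, Dnajb11 and Dnajc19.

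The members together took 0.796%, 0.757% and 0.836% of the counts of the controls and 0.900%, 0.928% and 1.04% of those of the Ptch1-ablated libraries. On the TPM scale their sum was 7267, 7153 and 8213 against 8918, 9379 and 9881. After TMM scaling the sums were 8210, 8061 and 9070 CPM against 8663, 8568 and 9815 CPM, and the groups overlapped. The scale matters because the median log2 fold change of all genes, 0.0046 with TMM, was 0.17 with library totals alone and 0.19 and 0.22 for limma on log2(TPM + 1) and log2(TPM + 0.1). The members' median moved alongside it, to 0.15, 0.16 and 0.17, and lay below the median of all genes each time.

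**Figure D4:**
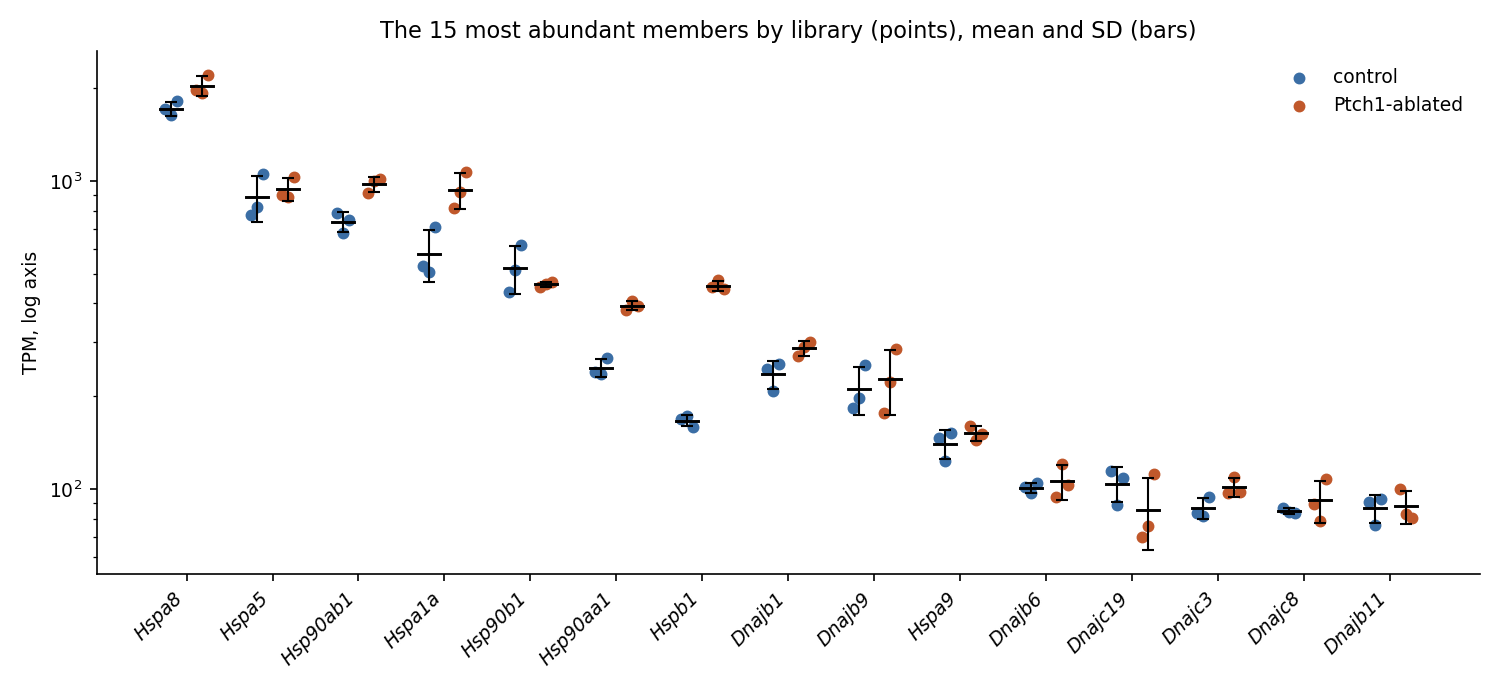
TPM (log axis) in each library of the 15 members most abundant over all libraries (points), with the group mean (line) and SD (error bars, n = 3). Hspb1 (167 ± 6.98 to 457 ± 16.8 TPM) moves up to the level of Hsp90b1. Hsp90aa1 (247 ± 16.3 to 393 ± 13.3 TPM) moves up too but stays below Hsp90b1 in each library. On this scale Hspa8, Hsp90ab1, Hspa1a, Dnajb1 and Dnajc3 also lie higher in every Ptch1-ablated library than in every control. The ranges of the remaining genes overlap between the groups.

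The promoters of the risen members are shown with those of Hspa1a and Hspd1, because heat shock elements, the sites of Hsf1, are arrays of the unit GAA in alternating orientation. Windows of 250 bases before the start were read from RefSeq on build GRCm38.p6, where 65 of the 81 members had an entry. The 2-unit forms GAANNTTC and TTCNNGAA, both palindromic and so the same on both strands, and the array of 3 units on either strand, in which both overlap, were searched. Capitals mark the matches. The windows are Hspb1 at chr5:135887669-135887918 (plus strand), Hspb8 at chr5:116422865-116423114 (minus), one of the starts of Dnajb4 at chr3:152193846-152194095 (minus), one of those of Dnaja1 at chr4:40722218-40722467 (plus), Hspa1a at chr17:34972157-34972406 (minus) and the Hspd1 start that faces Hspe1 at chr1:55087933-55088182 (minus).
Hspb1: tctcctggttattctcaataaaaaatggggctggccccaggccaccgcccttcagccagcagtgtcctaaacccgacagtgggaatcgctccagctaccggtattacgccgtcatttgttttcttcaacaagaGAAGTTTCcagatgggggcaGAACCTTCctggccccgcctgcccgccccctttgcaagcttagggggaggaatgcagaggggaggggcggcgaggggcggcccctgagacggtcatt
Hspb8: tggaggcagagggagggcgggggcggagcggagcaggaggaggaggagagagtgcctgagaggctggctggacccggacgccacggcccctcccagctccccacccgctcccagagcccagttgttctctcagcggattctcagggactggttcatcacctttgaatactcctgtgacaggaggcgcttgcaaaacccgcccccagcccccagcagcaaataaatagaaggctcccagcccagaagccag
Dnajb4: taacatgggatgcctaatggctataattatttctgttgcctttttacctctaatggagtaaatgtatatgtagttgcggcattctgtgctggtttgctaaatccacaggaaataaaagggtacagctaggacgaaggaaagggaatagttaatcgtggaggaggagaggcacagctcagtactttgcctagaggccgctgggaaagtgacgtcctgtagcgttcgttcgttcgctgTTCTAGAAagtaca
Dnaja1: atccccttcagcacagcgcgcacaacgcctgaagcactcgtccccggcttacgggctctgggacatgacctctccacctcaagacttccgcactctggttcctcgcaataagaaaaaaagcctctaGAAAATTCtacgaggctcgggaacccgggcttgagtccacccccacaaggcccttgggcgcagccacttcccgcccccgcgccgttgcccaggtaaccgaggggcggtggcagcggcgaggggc
Hspa1a: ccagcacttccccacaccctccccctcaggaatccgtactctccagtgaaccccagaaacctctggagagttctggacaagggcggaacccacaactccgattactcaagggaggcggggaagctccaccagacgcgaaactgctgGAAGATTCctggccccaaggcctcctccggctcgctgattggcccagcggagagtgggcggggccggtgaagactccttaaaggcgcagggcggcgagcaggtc
Hspd1: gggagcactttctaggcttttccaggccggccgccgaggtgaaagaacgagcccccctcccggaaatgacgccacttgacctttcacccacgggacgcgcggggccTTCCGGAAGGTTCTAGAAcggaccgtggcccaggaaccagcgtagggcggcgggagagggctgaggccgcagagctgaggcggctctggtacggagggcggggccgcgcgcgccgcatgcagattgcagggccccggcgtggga
Hspb1 held GAANNTTC beginning 117 and 97 bases before its start. Dnaja1 and Hspa1a held one match each, 124 and 104 bases before the start, and Dnajb4 held TTCNNGAA 14 bases before it. Hspd1 held an unbroken array that begins 144 bases before its start, which its window shares with that of Hspe1. No match lay in the Hspb8 window, in the other windows of Dnajb4 and Dnaja1 or in the other window of Hspd1. Hsp90aa1 and Cryab were not searched.

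Over all promoters a 2-unit match was not rare. Either form stood in 12.8% of 32851 windows and in 16 of the 83 windows of members (19.3%), from 14 genes. The 3-unit form stood in 0.466% of all windows and in 4 of the members' 83, from Dnajb6, Hspd1 and Hspe1, none of which passed the test. The Gli site GACCACCCA, searched on both strands, was in 0.225% of all windows and in 0 of the members' 83. A match describes the letters and is not a measure of binding.

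Genes outside the symbol rule were read as lists. Of 22 genes known to be induced by Hsf1, members included, 5 rose and 1 fell, beside 4.68% and 3.8% of all genes, with a median log2 fold change of 0.26 beside 0.0046 over all genes. The 5 that rose are the members already given, on a list chosen with earlier results known, and the one that fell was Cryab. Of 19 co-chaperones of HSP90, 0 rose and 1 fell, with a median of 0.01. That gene, Fkbp5, an immunophilin induced by glucocorticoids, went from 10.1 ± 4.69 to 2.32 ± 0.978 CPM (SD, n = 3 each, adjusted p = 0.0362 by edgeR). Of 14 subunits of the cytosolic chaperonin CCT and of prefoldin, 0 passed (median 0.06), and neither did any of 5 autophagy partners of Hspb8 and Bag3 (median -0.09) or of 8 mitochondrial folding genes (median -0.24).

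Genes of ER folding outside the symbol rule were read in the same way. Of 21 genes of ER folding and the unfolded protein response, 0 rose and 4 fell, beside 4.68% and 3.8% of all genes (median -0.19). Trib3, a pseudokinase induced by ER and amino acid stress, went from 413, 379 and 348 CPM to 159, 120 and 119 CPM (log2 fold change -1.52 ± 0.16, SE, adjusted p = 5.88e-05 by edgeR). Manf, a secreted ER chaperone, fell by 0.97 on the log2 scale, Sil1, the nucleotide exchange factor of Hspa5, by 0.91, and Herpud1, of ER-associated degradation, by 0.56. Sil1 lies beside an Hspa5 whose own groups overlapped, as given above. Of 6 collagen chaperones 1 fell, the prolyl isomerase Ppib (200 ± 12.9 to 123 ± 8.47 CPM, log2 fold change -0.70 ± 0.14, SE, adjusted p = 0.00814 by edgeR), and 0 rose.

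Other transcripts also differed between the groups. Of 19 immediate early and dissociation-induced genes such as Fos, Jun and Egr1, which respond to tissue digestion as well as to signals in the tissue, 13 rose and 0 fell (median 0.74). Over all genes 4.68% rose and 3.8% fell, the shares to set beside this count and each marker count that follows. Their summed level was 10942 to 12140 CPM in the controls and 17998 to 19465 CPM after ablation. Of 7 tested keratocyte markers 5 fell, keratocan (Kera) from 13452 ± 860 to 4472 ± 918 CPM (SD, n = 3 each). The sum over all 8 listed keratocyte markers went from 84855–94972 to 52816–70577 CPM. Each sum in this paragraph covers every gene of its list, tested or not. Of 7 mural cell markers 4 rose (sum 378–402 against 740–815 CPM), and of 6 markers of vascular endothelium 4 rose (585–787 against 691–750 CPM). Of 7 leukocyte markers 2 rose (2422–2608 against 3197–3221 CPM), and of 6 Schwann cell markers 1 rose (165–176 against 203–220 CPM). Of 6 tested markers of corneal epithelium 3 fell and 1 rose (39.6–68.6 against 2.29–9.42 CPM). Of 5 tested skeletal muscle markers 1 rose (11.2–14.9 against 11.2–19.7 CPM), and no melanocyte or corneal endothelial marker passed (18.1–23.0 against 13.1–18.9 CPM and 650–780 against 438–756 CPM). No marker of these lists was at 0 in every library. In bulk RNA fewer cells of a type and less RNA per cell cannot be told apart, and the part of these transcripts in the levels of Hspb1, Hspb8 and the other risen members was not tested.

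Some values rest on reads that could belong elsewhere. By the RefSeq annotation another gene overlaps 34 of the 81 members, among the risen ones Hspb8 (Gm36841), Dnajb4 (Gm40180 and Fubp1) and Dnaja1 (Gm6297 and Mir207), and strandedness of the counting is not given in the sources used here, so overlapping reads cannot be told apart. Hspb1 and Hsp90aa1 are overlapped by none. Beside Hspa1a and Hspa1b, Hspa1l, Hspa5, Dnajc14, Dnajc30, Dnajb14, Dnajc7 and Hspb11 carried estimated counts that were not whole in every library, and their levels are uncertain to that extent.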

How the data were processed

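RNA of 6 sorted keratocyte samples was measured, with groups and replicate numbers read from the sample titles. Per the labels, an Illumina TruSeq kit was used for the libraries, whereas the methods of the study describe ribosomal RNA depletion and a BGISEQ platform. The submitters' processing notes name Bowtie2 (2.2.5), RSEM (1.2.12) and the build mm9. The annotation and strandedness are not given in the sources used here. The authors deposited unnormalized RSEM expected counts for each gene (18.6% not whole, since RSEM divides reads that match several genes), TPM, which the authors scaled by effective length to the same total in every library, and FPKM, which was deposited but entered no test. The columns of group averages were not used.

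Expected counts were rounded, filtered with filterByExpr (13888 of 17606 genes kept), scaled by TMM and compared with edgeR's quasi-likelihood test (two-sided, no covariates, Benjamini-Hochberg over all 13888 genes). Rose and fell denote an adjusted p of at most 0.05, and the study's 2-fold minimum is given beside it. CPM is per 1000000 of the TMM-scaled total, and the SE came from the log2 fold change divided by the root of the F statistic. With 3 libraries a group, the smallest two-sided p of an exact permutation test is 0.1. With 20258439 to 24788063 counts per library, a member at a few counts is limited by counting error. Members and gene lists were chosen with earlier results of these data known, so their counts are no independent evidence. One gene of the Hsf1 list is not reported here and was left out of its counts. Named were members past the threshold, the 15 highest by mean TPM, heat-inducible members, Hsf1, Hsf2, Hsf4, the BAG genes and ER and mitochondrial members, and other genes serve as examples or, like Hspa2, Hspb2, Hspb6, Dnajc16 and Dnajc28, were picked with their values in view.

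Alternatives were RLE, upper quartile and no composition scaling (library totals), no count filter, 10 counts in 3 libraries, a minimum mean count of 50, a replicate block, leaving out each library, DESeq2, limma on TPM with a pseudocount of 1 or 0.1 on the log2 scale, and other thresholds. Promoter windows and gene overlaps came from RefSeq tables of GRCm38.p6, matched by symbol or Entrez identifier (81 of 81 members in the gene table), and no position of the files' own build is given. The tools were edgeR 4.0.16, DESeq2 1.42.0 and limma 3.58.1 in R 4.3.3, with pandas 2.3.3 in Python 3.11.15 and plots by matplotlib 3.10.9.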

Additional observations from a re-analysis of the deposited data

How the results depend on the processing

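Over 42 of the named members and 16 alternatives, 578 results kept their direction and their side of the threshold. Another 20 passed where the first fit did not, 15 no longer passed, and 59 changed sign, none of these in the 5 members that rose. Some members given values above, such as Dnajc16, Dnaja2 and Hspa4, were not among the 42. The pass of Dnajc16 without control replicate 1 is therefore not counted in the 20. Members higher at an adjusted p of at most 0.05 numbered 5 in the first fit, 9 with library totals, 8 with DESeq2 and 10 with each limma fit. Members lower numbered 0 in the first fit and 1 with DESeq2 (Hsp90b1). With a 1.5-fold minimum 4 members were called, against 2 with the 2-fold minimum. The median log2 fold change of the members, -0.02 in the first fit, was 0.15 with library totals and 0.16 and 0.17 with limma on log2(TPM + 1) and log2(TPM + 0.1), settings that moved all genes in the same way. Leaving out 1 library at a time gave 2 to 5 members higher, 0 to 1 lower (Dnajc16, without control replicate 1) and 2 to 4 past the 2-fold minimum. The replicate number as a block gave 5 members higher, 0 lower and 2 past the 2-fold minimum. Deviations of same-numbered libraries correlated at -0.05, -0.05 and 0.04, so the numbers were not taken to pair the samples, and libraries did not correlate best with their own number in every case. Under the block Hsp90aa1 no longer passed and Hspa1a did.

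Members near 0 changed sign with the scaling. With library totals the log2 fold changes became 0.11 for Dnajb6, 0.079 for Dnajb9, 0.046 for Dnajc1, 0.065 for Dnajc10, 0.11 for Dnajc11, 0.019 for Dnajc15, 0.081 for Dnajc8, 0.059 for Hspa5 and 0.069 for Hspa9. With limma on log2(TPM + 1) and log2(TPM + 0.1) they became 0.033 and 0.034 for Bag6, 0.014 and 0.014 for Dnaja3, 0.015 and 0.015 for Dnajb11, 0.063 and 0.063 for Dnajb6, 0.097 and 0.097 for Dnajb9, 0.099 and 0.10 for Dnajc1, 0.12 and 0.12 for Dnajc10, 0.15 and 0.15 for Dnajc11, 0.067 and 0.069 for Dnajc15, 0.040 and 0.040 for Dnajc30, 0.10 and 0.11 for Dnajc8, 0.098 and 0.098 for Hspa5, 0.12 and 0.12 for Hspa9 and 0.046 and 0.047 for Hspe1. With upper quartile scaling they became -0.033 for Dnajc3 and -0.0043 for Hspa8. Leaving out 1 library moved Bag4 between -0.11 and 0.62, Dnajb1 between -0.0034 and 0.11, Dnajb6 between -0.13 and 0.0090, Dnajb9 between -0.33 and 0.057, Dnajc10 between -0.22 and 0.070, Dnajc11 between -0.20 and 0.039, Dnajc15 between -0.27 and 0.012, Dnajc3 between -0.018 and 0.060, Dnajc8 between -0.25 and 0.058, Hspa5 between -0.22 and 0.015, Hspa8 between -0.060 and 0.12, Hspb6 between -0.11 and 0.49 and Hspe1 between -0.39 and 0.033. None of these members passed under any of the alternatives. The cause of these sign changes was not tested. Scarce members carried wide errors, with an SE of 1.73 on the log2 scale for Hspb7, 0.95 for Hsf5 and 1.13 for Dnajb13.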
